A study of Mus musculus with 16 samples.

Results

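The serpin clade A genes are the 29 genes, of 47729 in the count files, whose symbol starts with Serpina. RNA was sequenced from 4 cell types that had been separated from unchallenged livers of 8-week-old male mice: hepatocytes (HC), endothelial cells (EC), hepatic stellate cells (SC) and Kupffer cells (KC). Mice labelled KO carried loxP-flanked (floxed) Zeb2 alleles and a tamoxifen-inducible Cre under the endothelial Cdh5 promoter, together with a Cre-dependent green fluorescent reporter. Mice labelled WT were littermates without Cre, and both genotypes received tamoxifen at 2 mg per day for 5 days and were studied 2 weeks later. There were 2 libraries per cell type and genotype label, 16 in all, with 12872706 to 15690506 reads on genes each. Since Cre was endothelial, stellate cells, Kupffer cells and hepatocytes of KO mice are cells next to the targeted endothelium.

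Serpins are protease inhibitors that act once: the protease cuts an exposed reactive centre loop, the inhibitor changes shape and the protease stays trapped on it. Hepatocytes secrete most clade A members into plasma. Serpina1 encodes alpha-1-antitrypsin, the main plasma inhibitor of neutrophil elastase, and the mouse carries several copies of it. Serpina3 encodes the antichymotrypsin group, which expanded widely in rodents. Some members no longer inhibit proteases and carry hormones instead, such as Serpina6, corticosteroid-binding globulin, and Serpina7, thyroxine-binding globulin.

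In the GENCODE M21 annotation of GRCm38, 28 members lay in a cluster on chromosome 12 (chr12:103614786-104414329) and Serpina7 lay on chromosome X (chrX:139079257-139085236). The annotation lists 24 members as protein-coding and 5 as pseudogenes, namely Serpina3h, Serpina3d-ps, Serpina3e-ps, Serpina3l-ps and Serpina4-ps1. Of the 29, 22 averaged 10 or more CPM (reads of a gene divided by all gene reads of the library, times 1e+06) in at least 1 cell type and 7 did not. Serpina1f had 0 reads in all 16 libraries, which allows up to 3 counts per library. Serpina16 had 1 and 3 reads in the WT stellate cell libraries and 0 elsewhere.

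The Serpina1 copies are shown first, because reads must be split among copies that differ at few bases. Over 1239 aligned coding bases, Serpina1a to Serpina1e were identical in all 5 genes at 1153 positions (93.1%), and pairs shared between 96.3% (Serpina1b and Serpina1e, and likewise Serpina1d and Serpina1e) and 98.5% (Serpina1a and Serpina1c). The 48-base stretch with the most differences was found at coding positions 1113 to 1160 of each gene, in exon 5 of 5, the exon that encodes the reactive centre loop. It is written below on the minus strand of GRCm38, with capitals at the 17 positions where the 5 genes are not all alike. The stretches lie at chr12:103853757-103853804 for Serpina1a, chr12:103728324-103728371 for Serpina1b, chr12:103895094-103895141 for Serpina1c, chr12:103763762-103763809 for Serpina1d and chr12:103947100-103947147 for Serpina1e.
Serpina1a: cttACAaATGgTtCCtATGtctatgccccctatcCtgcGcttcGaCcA
Serpina1b: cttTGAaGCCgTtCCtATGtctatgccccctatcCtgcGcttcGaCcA
Serpina1c: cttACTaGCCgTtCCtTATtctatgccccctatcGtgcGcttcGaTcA
Serpina1d: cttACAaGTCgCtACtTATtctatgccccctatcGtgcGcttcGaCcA
Serpina1e: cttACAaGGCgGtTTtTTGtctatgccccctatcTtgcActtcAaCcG
In this stretch Serpina1b differed from Serpina1a at 5 bases, Serpina1d at 8, Serpina1c at 9 and Serpina1e at 11.

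How well a read can be assigned depended on that likeness and on words shared with genes outside the clade. Of all 50-base words in the transcripts of a member, the share found in no other annotated gene was 25.8% for Serpina1c, 42.4% for Serpina1a, 49.1% for Serpina1d, 65.4% for Serpina1e and 70.5% for Serpina1b. Serpina1c shared 69.4% of its words with Serpina1a. Genes outside the clade, most of all Gm8893, held 573 of the 1845 words of Serpina1a and 480 of the 1312 of Serpina1c. They held 371 of 1345 for Serpina1d, 356 of 2285 for Serpina1b and 286 of 1568 for Serpina1e. Outside the Serpina1 genes the share was at least 78.1% (Serpina3h), except for Serpina11, where it was 64.3% because the annotated transcript Gm28577 overlaps it. Levels of single Serpina1 genes are therefore less certain than those of other members. By gene span, Serpina1b and Serpina1d overlap on the same strand, and so do Serpina3k and Serpina3m. Whether their exons overlap was not checked, and reads from any shared exon could not be told apart.

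The 5 Serpina1 promoters were almost as alike as their coding sequences. RefSeq (GRCm38.p6) gives a promoter window of 250 bases before and 50 after the start for 19 members. The letters GTTAATATTCAC, a run close to the start that the 5 promoters share, were searched on both strands and were in 5 of all 32851 windows (0.0152%), those of Serpina1a to Serpina1e. The 68 bases ending with these letters (in capitals) are given on the minus strand, from chr12:103863629-103863696 (Serpina1a), chr12:103738204-103738271 (Serpina1b), chr12:103904966-103905033 (Serpina1c), chr12:103773638-103773705 (Serpina1d) and chr12:103956964-103957031 (Serpina1e).
Serpina1a: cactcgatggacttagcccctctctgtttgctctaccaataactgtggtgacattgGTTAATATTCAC
Serpina1b: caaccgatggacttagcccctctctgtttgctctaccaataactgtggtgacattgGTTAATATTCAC
Serpina1c: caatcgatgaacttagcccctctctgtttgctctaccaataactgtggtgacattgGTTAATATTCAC
Serpina1d: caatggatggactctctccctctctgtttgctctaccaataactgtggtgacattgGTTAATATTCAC
Serpina1e: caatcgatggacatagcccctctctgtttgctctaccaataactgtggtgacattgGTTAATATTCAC
Serpina1b, Serpina1c and Serpina1e each differed from Serpina1a at 2 of these bases, and Serpina1d at 6. These letters were chosen after the sequences had been seen, and a match shows letters, not binding.

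Another run of letters, ATTTCCTAAG, was shared by Serpina3 promoters whose genes had very different levels in the libraries. It was in the windows of 6 members (Serpina3b, Serpina3c, Serpina3f, Serpina3g, Serpina3i and Serpina3n) and in 0.146% of all windows on either strand. Serpina3h, Serpina3k and Serpina3m were among the members without a window, so that they were not searched. The 30 bases around it are shown for 4 of them on the plus strand, with the shared letters in capitals, from chr12:104214462-104214491 (Serpina3f), chr12:104236162-104236191 (Serpina3g), chr12:104263068-104263097 (Serpina3i) and chr12:104406633-104406662 (Serpina3n).
Serpina3f: cagcttgtatacatcaccATTTCCTAAGat
Serpina3g: cagcttatctgcatcaacATTTCCTAAGat
Serpina3i: cagcttgtattcatcagcATTTCCTAAGaa
Serpina3n: cagcttgtccatgccagcATTTCCTAAGag
In Serpina3g the run lay just after the RefSeq start and in the other 3 before it.

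Zeb2 itself, counted over the whole gene, had 106 and 106 CPM in EC WT and 199 and 130.1 CPM in EC KO. Only an exon of Zeb2 was floxed, so that a count over the whole gene is no check of the labels, and the groups are called by their labels here. Each labelled cell type carried its own markers, read as medians over lists of 10 endothelial, Kupffer and stellate genes. These were 87.0% to 113% of the WT level of that cell type in its own libraries and at most 5.17% in all others. A list of 5 B cell markers summed to 218 and 676 CPM in EC WT and 137 and 152 CPM in EC KO. It summed to 86.0 to 209 CPM in Kupffer cells, 14.9 to 92.5 CPM in stellate cells and 3.95 to 16.4 CPM in hepatocytes. The part of lymphocyte RNA in the members' levels was not tested. The median of 14 hepatocyte markers was at 95.9% to 112% in hepatocytes, 10.8% and 24.2% in EC WT, 2.38% and 1.97% in EC KO, 5.17% to 12.0% in Kupffer cells, 3.21% and 7.17% in SC WT, and 0.525% and 1.14% in SC KO, with no marker at 0 in any library.

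Serpina genes took 2.74% to 3.31% of all gene reads in the 4 hepatocyte libraries. They took 0.564% and 0.888% in EC WT, 0.210% and 0.250% in EC KO, 0.233% to 0.342% in Kupffer cells, 0.258% and 0.262% in SC WT, and 0.0641% and 0.107% in SC KO. The half-width of the Wilson interval at 95% was at most 0.00916 percentage points, which covers counting error only. In bulk libraries like these, fewer cells of a type and less RNA per cell cannot be told apart.

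Of the 29 members, 21 had their highest mean CPM in hepatocytes, 5 in endothelial cells and 1 each in stellate and Kupffer cells, while Serpina1f had no reads. The plot of levels by library shows the contrast between the hepatocyte members and Serpina3f, Serpina3g, Serpina3h and Serpina3i.

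**Figure D1:**
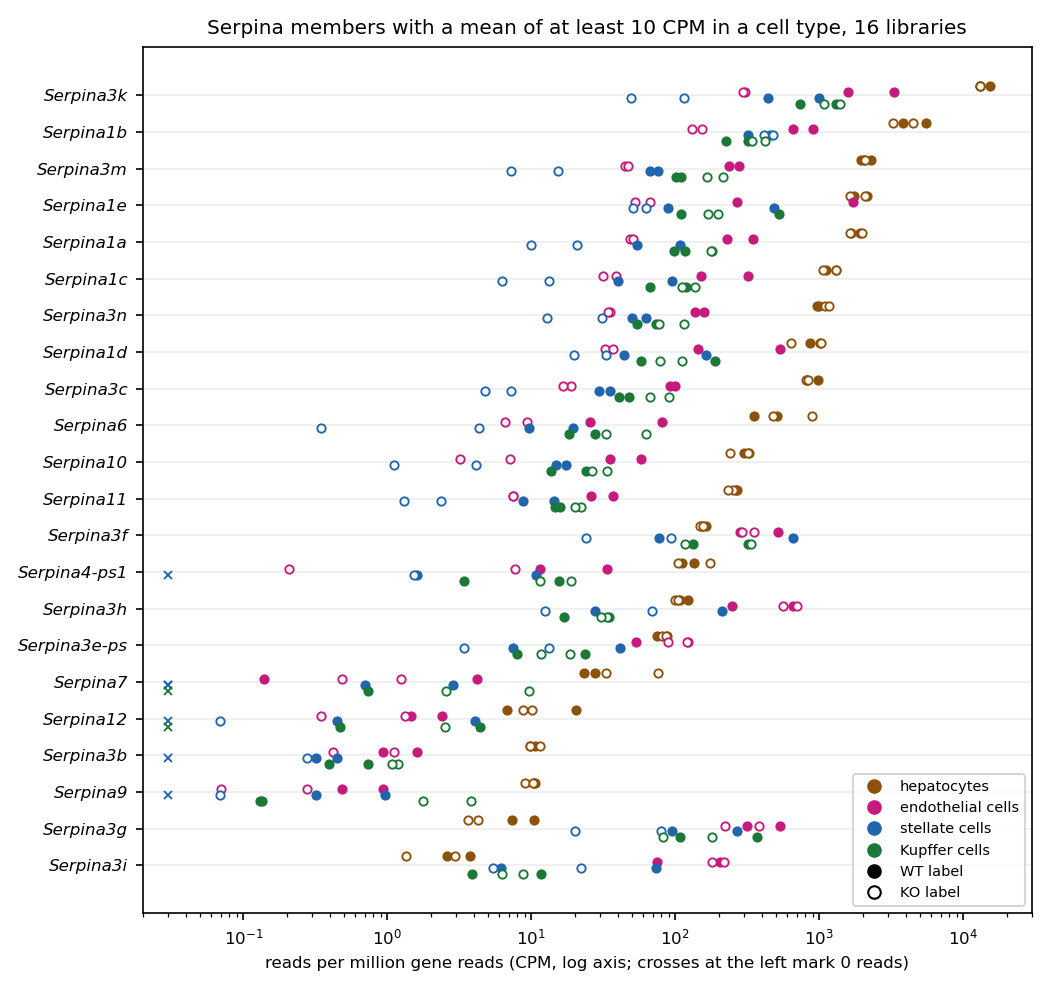
Level of each of the 22 members that average 10 or more CPM in a cell type (x axis: CPM, log scale) in the 16 libraries, coloured by cell type, with filled points for the WT label, open points for the KO label and crosses for 0 reads. Serpina3k sits at 13039 CPM or higher in the 4 hepatocyte libraries, whereas Serpina3g and Serpina3i at the bottom are lower in the hepatocytes than in each of the 4 endothelial libraries.

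Serpina3k, which binds tissue kallikrein, was the leading member in hepatocytes. Its level was 13151 and 15419 CPM in WT and 13128 and 13039 CPM in KO, and per kilobase of annotated exon its mean was 6653 CPM. Serpina1b came next with 1768 CPM per kilobase, from 3836 and 5545 CPM in WT and 4452 and 3251 CPM in KO. The lower WT library of Serpina3k lay next to the KO libraries, and those of Serpina1b overlapped. Alignments that were not unique stayed uncounted, at 74.5 to 113 per 100 gene reads in the hepatocyte libraries. Levels per kilobase were not corrected for words shared between genes. Among Serpina1a to Serpina1e, Serpina1b had the largest share of words of its own (70.5%), so that the order of these genes is uncertain.

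A group of 4 genes followed within a narrow range of mean levels per kilobase in hepatocytes. Serpina3m had 1217, Serpina1e 1172, Serpina1a 981 and Serpina1c 875 CPM per kilobase. Their hepatocyte ranges over the 4 libraries were 1961 to 2283 CPM for Serpina3m, 1631 to 2136 for Serpina1e, 1643 to 1967 for Serpina1a and 1055 to 1305 for Serpina1c. Per kilobase the ranges were 1141 to 1328 for Serpina3m, 1009 to 1321 for Serpina1e, 897 to 1074 for Serpina1a and 775 to 959 for Serpina1c, so that each overlapped with the next.

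The lower hepatocyte members include the hormone carriers and a coagulation inhibitor. Serpina1d had 633 CPM per kilobase, Serpina3n, an acute phase member that inhibits granzyme B, 514, Serpina3c 389.8 and Serpina6 316. Serpina6 varied more than these, at 505 and 349.7 CPM in WT and 476 and 893 CPM in KO. Serpina11 had 156 CPM per kilobase, the pseudogene Serpina4-ps1 102 and Serpina10, which inhibits factor Xa together with protein Z, 85.0. Serpina7 had 16.4 CPM per kilobase, with 27.9 and 23.0 CPM in WT and 33.0 and 76.2 CPM in KO.

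At the low end, Serpina12 (vaspin), Serpina3b and Serpina9 had means of 11.5, 10.4 and 10.1 CPM in hepatocytes. Serpina5, the protein C inhibitor, had 77 and 47 reads in the HC WT libraries and 23 and 40 in HC KO, 17 reads in the KC KO library numbered 27, and 0 in the other 11. Serpina3l-ps had 2.45 to 3.23 CPM in hepatocytes, Serpina3a 0.838 to 2.76 CPM and Serpina3j at most 7 reads in any library.

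The mean levels along chromosome 12 set the members of the 4 cell types side by side. From Serpina10 to Serpina3c the hepatocyte mean was the highest at every gene with reads except Serpina16. From Serpina3e-ps to Serpina3i (chr12:104189517-104269372), a run of 5 adjacent members, the endothelial mean CPM was the highest, and from Serpina3j on it was again that of hepatocytes. On CPM scaled by the normalization factors, the highest mean of Serpina3e-ps and Serpina3f was in hepatocytes, and that of Serpina3g, Serpina3h and Serpina3i stayed in endothelial cells.

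**Figure D2:**
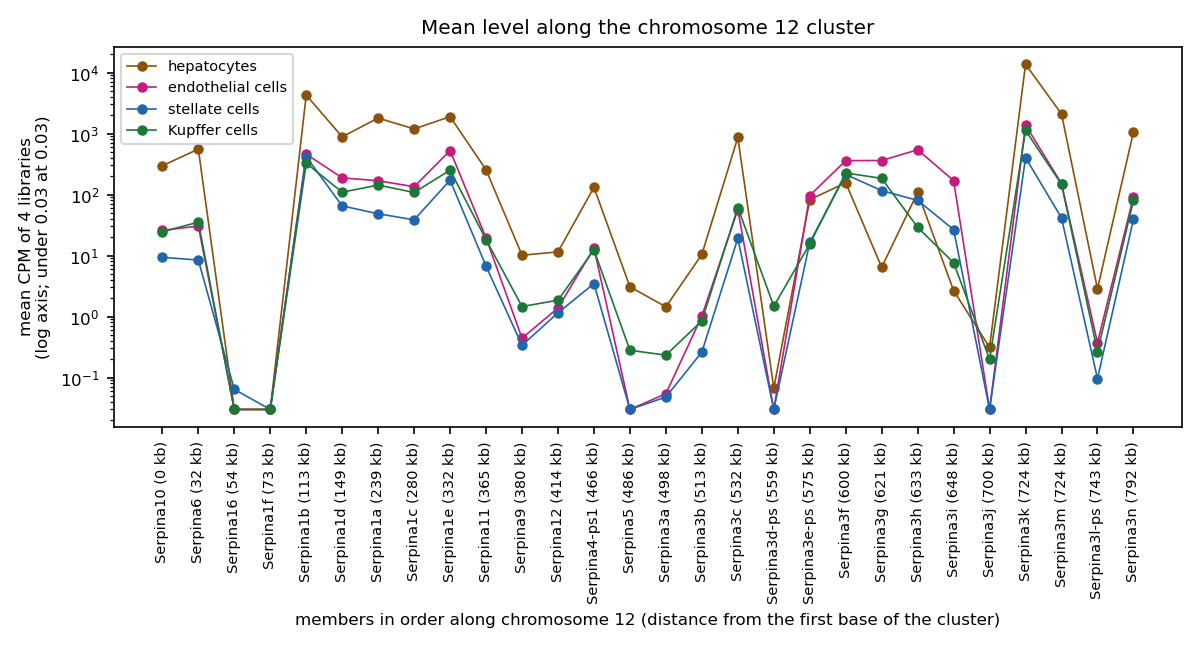
Mean CPM of the 4 libraries of each cell type (y axis, log scale, values under 0.03 drawn at 0.03) for the 28 members on chromosome 12 in genome order, with the distance of each gene from the first base of the cluster in kilobases in its label. The endothelial line rises above the hepatocyte line at Serpina3e-ps, Serpina3f, Serpina3g, Serpina3h and Serpina3i only, which for Serpina3e-ps and Serpina3f does not hold on scaled CPM.

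Serpina3g, an intracellular serpin that inhibits cysteine cathepsins, was the clearest member that did not come from hepatocytes. It had 10.5 and 7.30 CPM in HC WT and 4.25 and 3.64 CPM in HC KO. In endothelial cells it had 533 and 315 CPM in WT and 219.7 and 379 CPM in KO, and in Kupffer cells 368 and 108 CPM in WT and 81.6 and 179 CPM in KO. In stellate cells it had 269.9 and 94.9 CPM in WT and 20.1 and 79.4 CPM in KO. All 12 of these libraries were above all 4 hepatocyte libraries on this scale. On CPM scaled by the normalization factors, SC KO 8 (16.2) lay below HC WT 29 (17.8).

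The test of each cell type against hepatocytes covered 26 members and 17214 genes, with the mean over both labels. Serpina3g was higher by 4.56 log2 units (SE 0.63, adjusted p = 5.74e-05) in endothelial cells, by 3.89 (SE 0.61, adjusted p = 0.000175) in Kupffer cells and by 2.91 (SE 0.59, adjusted p = 0.00114) in stellate cells. These fold changes used normalization factors of 0.497 to 0.588 for hepatocytes and 1.01 to 1.47 for the other libraries, and the median of all genes moved by 0.54 (EC), 0.60 (SC) and 0.24 (KC).

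Serpina3i was similar in endothelial cells but not in Kupffer cells. It had 1.35 to 3.76 CPM in hepatocytes, 205 and 74.2 CPM in EC WT, 179 and 218 CPM in EC KO, and 3.85 to 11.7 CPM in Kupffer cells. Its difference from hepatocytes was 4.63 (SE 0.81, adjusted p = 0.000382) in endothelial cells and 2.05 (SE 0.74, adjusted p = 0.0325) in stellate cells. In Kupffer cells it was 0.52 (SE 0.74, adjusted p = 0.594), and the libraries overlapped after normalization. The stellate cell libraries had 72.9 and 6.14 CPM in WT and 5.39 and 22.2 CPM in KO, and the call was lost without SC WT 32 (0.94), SC KO 20 (1.57), HC WT 33 (2.21) or HC KO 25 (2.05).

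Serpina3h, Serpina3f and Serpina3e-ps were present in hepatocytes as well, and the call of Serpina3h and the direction of the other two depended on the scale. Serpina3h had 99.6 to 122 CPM in hepatocytes and 658 and 247 CPM in EC WT and 563 and 701 CPM in EC KO. Its difference of 0.94 in endothelial cells did not pass the test (SE 0.63, adjusted p = 0.213), while with library totals alone it was 2.30 (adjusted p = 0.0062). Serpina3f had 149 to 163 CPM in hepatocytes and 283 to 518 CPM in endothelial cells, and its difference was -0.17 (adjusted p = 0.863), or 1.20 with library totals alone. Serpina3e-ps had 74.8 to 87.6 CPM in hepatocytes and 53.6 to 122 CPM in endothelial cells, with a difference of -1.14 (adjusted p = 0.106), or 0.22 with library totals alone.

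In Kupffer cells Serpina3f had 317 and 134 CPM in WT and 117 and 336 CPM in KO, with a difference from hepatocytes of -0.49 (adjusted p = 0.546), or 0.54 with library totals alone. In stellate cells it ranged most, with 659 and 76.9 CPM in WT and 24.1 and 93.7 CPM in KO. Serpina3h was lower than in hepatocytes in Kupffer cells by 2.94 log2 units (adjusted p = 0.00256), at 16.8 to 34.8 CPM.

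Serpina3d-ps, an unprocessed pseudogene next to this run, was seen almost only in Kupffer cells, with 18, 36, 8 and 27 reads. It had 3 and 1 reads in a WT and a KO hepatocyte library, 1 read in a stellate cell library and 0 in the remaining libraries. Its difference of 3.47 (SE 1.32) had an adjusted p of 0.0499957, at the edge of the threshold.

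The other members were lower outside hepatocytes. In endothelial cells 20 of 26 members tested were called lower and 2 higher, against 25.5% and 33.2% of all genes tested. In stellate cells 22 were lower and 2 higher, against 24.4% and 34% of genes, and in Kupffer cells also 22 and 2, against 26.3% and 29.3%. The median difference over the 26 members was -5.21 in endothelial cells, -6.62 in stellate cells and -4.62 in Kupffer cells. With Serpina5 and Serpina3d-ps, which had no reads in endothelial cells, set at 3 counts per library, the median was -5.13 there, and with Serpina5 set likewise it was -6.59 in stellate cells. Medians of the 14 hepatocyte markers in the same tests were -5.40, -6.76 and -4.69, and their part in the members' levels was not tested.

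Serpina reads were therefore also set against the summed reads of the 14 hepatocyte markers of the same library, with the mean ratio of the HC WT libraries taken as 1. For Serpina1a, Serpina1c, Serpina3c, Serpina3k, Serpina3m, Serpina10 and Serpina11, the 84 ratios in the 12 other libraries had a median of 0.90 and ran from 0.389 to 1.40. Of these, 81 lay between 0.5 and 2 and 3 below. These 7 genes were picked for description after the ratios had been seen. The other 10 described members with their highest mean in hepatocytes ranged more widely over the same 12 libraries. Ratios ran from 0.664 to 2.35 for Serpina3n, from 0.145 to 1.24 for Serpina6, from 0.712 to 3.80 for Serpina1d, from 0.745 to 4.70 for Serpina1e and from 0.625 to 15.9 for Serpina1b. For Serpina4-ps1, Serpina7, Serpina9, Serpina12 and Serpina3b, which had few reads, they ran from 0 to at most 5.40. For Serpina3e-ps, Serpina3f, Serpina3g, Serpina3h and Serpina3i, the 60 ratios had a median of 42.3 and ran from 1.17 to 3397. All 20 of these ratios in endothelial cells were above 2, as were 19 of 20 in stellate cells and 16 of 20 in Kupffer cells. These genes were grouped because their mean CPM was highest in endothelial cells, where hepatocyte marker reads were few. High ratios there follow from that choice and are no separate evidence.

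**Figure D3:**
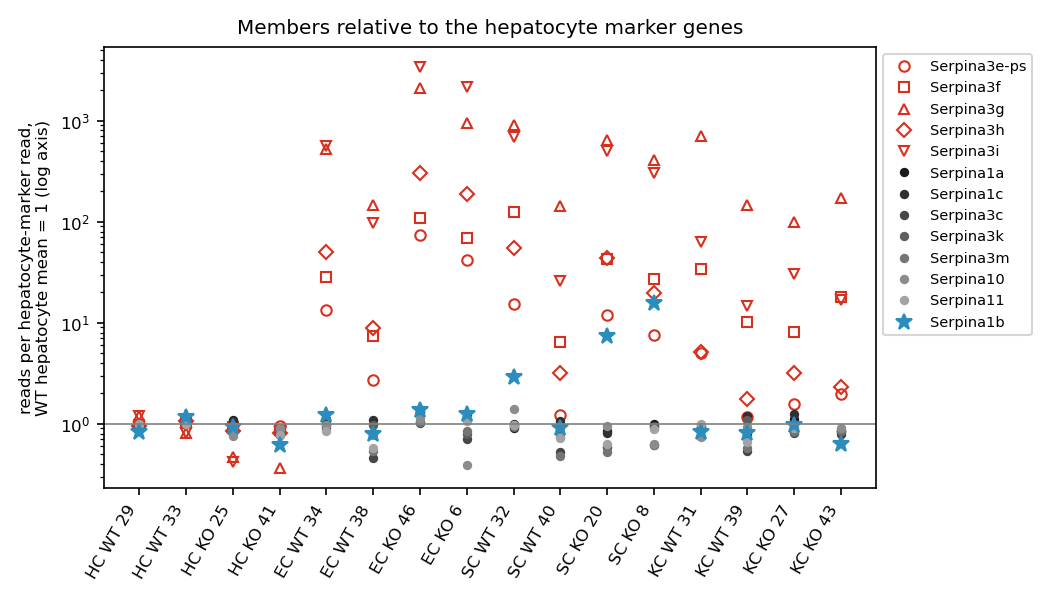
Reads of 13 members per read of the 14 hepatocyte marker genes in each of the 16 libraries, relative to the mean of the WT hepatocytes (y axis, log scale; grey line at 1). Grey points (7 members) stay between 0.389 and 1.40 outside hepatocytes, red symbols (5 members of the Serpina3e-ps to Serpina3i run) reach 3397, and the blue stars (Serpina1b) leave the grey points in stellate cells.

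Serpina1b differed from Serpina1a in its pattern in stellate cells. It had 457 and 318 CPM in SC WT and 413 and 480.5 CPM in SC KO, whereas Serpina1a had 54.4 and 109 CPM in SC WT and 9.95 and 20.8 CPM in SC KO. Its ratio to hepatocyte markers was 2.92 and 0.907 in SC WT and 15.9 and 7.43 in SC KO, and between 0.625 and 1.38 in the endothelial and Kupffer cell libraries. Ratios in SC KO were 4.70 and 2.35 for Serpina1e and 3.80 and 2.54 for Serpina1d, and 1.003 and 0.844 for Serpina1a and 0.932 and 0.805 for Serpina1c. Its difference from hepatocytes in stellate cells was -4.48 (SE 0.25), that of Serpina1a -6.78 (SE 0.36).

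The composition of the Serpina1 reads set apart 6 libraries. In the 10 libraries of hepatocytes, endothelial cells and Kupffer cells other than WT 38 and WT 39, Serpina1e took 17.8% to 19.9% of Serpina1a to Serpina1e reads and Serpina1b 39.1% to 46.6%. In EC WT 38 Serpina1e took 45.1% (Wilson interval at 95%, 44.6 to 45.5) of 49180 reads. In KC WT 39 it took 41.5% (40.8 to 42.2) of 19517 reads and in SC WT 40 41.6% (40.9 to 42.3) of 18309 reads. The levels of Serpina1e were 1721, 529 and 487 CPM in these 3 libraries, against 267, 109.8 and 88.8 CPM in the other WT library of the same cell type.

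Serpina1d was higher in the same libraries, with between 13.955% and 14.884% of the reads against 7.69% to 11.0% in the 10 libraries. Serpina1e per hepatocyte marker read was 3.68, 3.27 and 3.36 times the mean of WT hepatocytes there. No hepatocyte library showed this composition, and the 3 libraries are a single library of each cell type, so that no test of it was made. Their label numbers are adjacent, and whether they come from a shared liver is not stated in the labels.

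The other 3 libraries that stood apart were of stellate cells. Serpina1b took 82.7% (81.8 to 83.5) of 7223 Serpina1 reads in SC KO 8 and 78.7% (77.9 to 79.6) of 8826 in SC KO 20. It took 66.8% (65.9 to 67.7) of 10686 in SC WT 32.

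**Figure D4:**
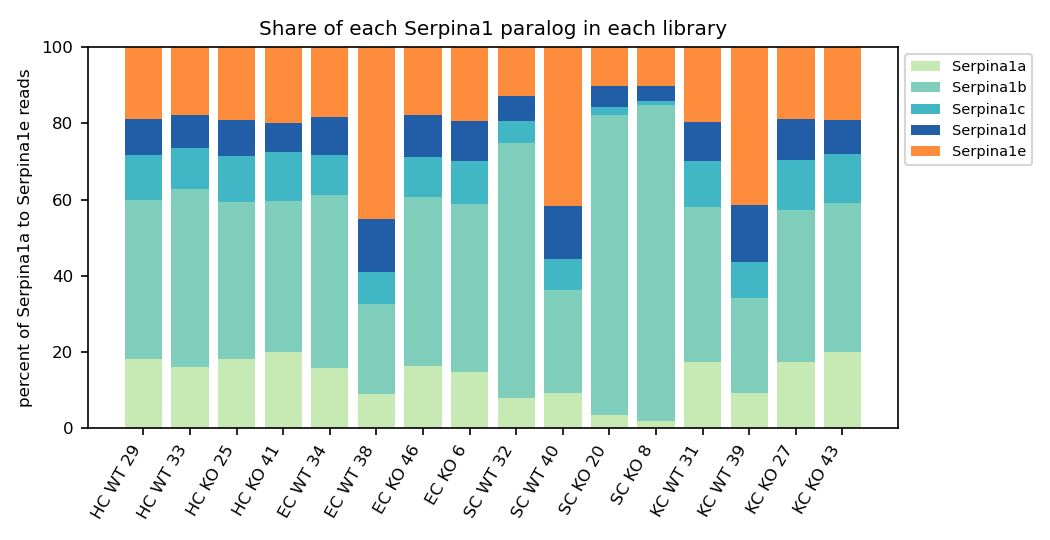
Share of Serpina1a to Serpina1e in their summed reads (y axis, percent) in each of the 16 libraries, named by cell type, genotype label and label number. Serpina1e (orange) reaches 41.5% to 45.1% in EC WT 38, SC WT 40 and KC WT 39, and Serpina1b takes 66.8% to 82.7% in SC WT 32, SC KO 8 and SC KO 20.

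In endothelial cells, the targeted cell type, 9 members were called lower under the KO label and none higher, of 21 tested. Among all 14631 genes tested 2.08% were called, 1.97% as lower. For 14 of the 21 both KO libraries lay below both WT libraries, against 24.5% of genes. The 9 genes were Serpina1a, Serpina1b, Serpina1c, Serpina3c, Serpina3k, Serpina3m, Serpina3n, Serpina10 and Serpina11, and they fell by 2.06 to 3.15 log2 units. The 14 hepatocyte markers were all called lower in the same test, with a median of -2.93, and their summed level was 17248 and 36629 CPM in WT and 3968 and 3066 CPM in KO. Their part in the fall of the 9 members was not tested.

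Serpina3k dropped from 1588 and 3328 CPM in EC WT to 294 and 303 CPM in EC KO. The groups did not overlap, and the change was -3.03 (SE 0.41, adjusted p = 0.03). Serpina3m, with 236 and 278 CPM in WT and 47.0 and 44.4 CPM in KO, had the smallest adjusted p of the members (-2.49, SE 0.21, adjusted p = 0.019). Serpina1b went from 656 and 899 CPM to 153 and 131 CPM (-2.45, SE 0.26, adjusted p = 0.0245).

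The remaining 6 showed the same order of change. Serpina1a had 228 and 346 CPM in WT and 51.04 and 48.6 CPM in KO, and Serpina1c had 149.9 and 317 CPM in WT and 39.0 and 31.6 CPM in KO. Serpina3c had 92.3 and 99.3 CPM in WT and 16.6 and 18.8 CPM in KO, and Serpina3n 138 and 159 CPM against 33.8 and 35.0 CPM. Serpina10 had 35.0 and 58.1 CPM against 3.20 and 7.09 CPM, and Serpina11 26.0 and 36.8 CPM against 7.52 and 7.51 CPM. Set against hepatocyte markers, the ratio of Serpina1a was 1.12 and 0.801 in WT and 1.09 and 1.34 in KO, and that of Serpina3k 0.978 and 0.965 in WT and 0.787 and 1.05 in KO. With the WT libraries first, ratios were 1.23, 0.795, 1.25 and 1.38 for Serpina1b and 1.10, 1.09, 1.24 and 1.30 for Serpina1c. They were 0.899, 0.455, 0.704 and 1.03 for Serpina3c and 0.977, 0.543, 0.847 and 1.04 for Serpina3m. Serpina3n had 1.23, 0.668, 1.31 and 1.76, Serpina10 0.980, 0.765, 0.389 and 1.12, and Serpina11 0.852, 0.569, 1.07 and 1.39.

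Serpina1d, Serpina1e and Serpina6 differed by as much but did not pass the test. Their changes were -3.28 (adjusted p = 0.0523), -4.04 (adjusted p = 0.0744) and -2.73 (adjusted p = 0.0727). The WT libraries of these genes lay far apart: Serpina1e had 267 and 1721 CPM and Serpina6 25.5 and 80.4 CPM. Without EC WT 38 the changes of Serpina1d (-2.08) and Serpina1e (-2.18) passed the test, and without EC WT 34 those of Serpina1d (-3.91), Serpina1e (-4.81) and Serpina6 (-3.31) did.

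The members of the Serpina3e-ps to Serpina3i run were not called. Changes were -0.32 for Serpina3f (adjusted p = 0.727), -0.49 for Serpina3g (adjusted p = 0.633), 0.48 for Serpina3h (adjusted p = 0.694), 0.51 for Serpina3i (adjusted p = 0.675) and 0.25 for Serpina3e-ps (adjusted p = 0.84), with standard errors of 0.35 to 0.47. The WT and KO libraries overlapped for all 5 genes. Serpina3h, Serpina3i and Serpina3e-ps were negative without EC WT 38, at -0.074, -0.063 and -0.24, and Serpina3e-ps also without EC KO 46. Without EC WT 34 Serpina3f was positive, at 0.23, and Serpina3i was called higher, at 1.47.

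The count of called members depended on the 2 KO libraries of endothelial cells. It was 13 without EC WT 34, 10 without EC WT 38, and 0 without EC KO 6 or without EC KO 46.

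**Figure D5:**
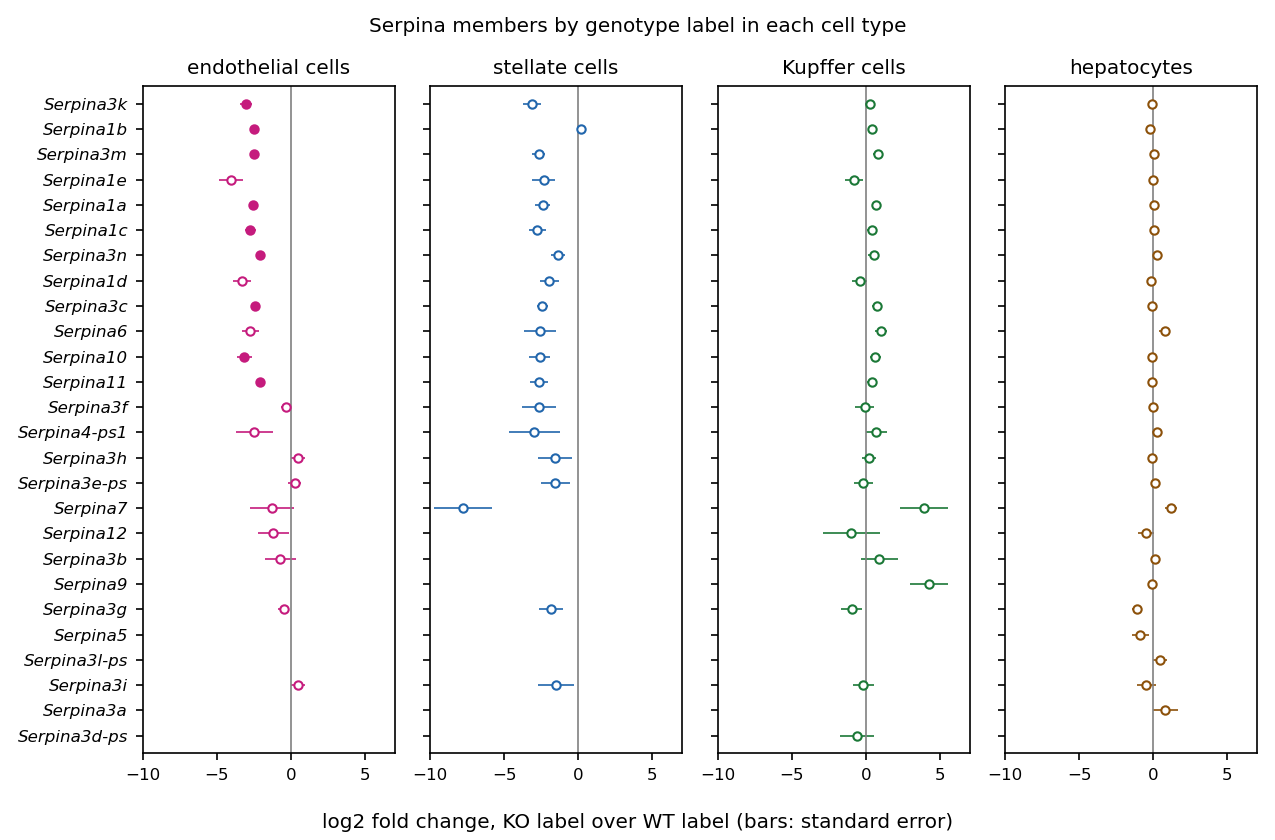
Log2 fold change of the KO label over the WT label (x axis, bars show the standard error) for the members tested in endothelial cells (21), stellate cells (19), Kupffer cells (23) and hepatocytes (25), ordered by their hepatocyte level, with filled points where the adjusted p was under 0.05. Filled points are the 9 endothelial members, between -3.15 and -2.06, and no other panel has any.

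In stellate cells no member was called with edgeR, of 19 tested (0% of 14390 genes were called), and 11 were lower at an unadjusted p under 0.05, against 7% of genes. The smallest adjusted p was 0.297 and the median change -2.43. DESeq2 called 9 members and the fit on all 16 libraries 6, but the share of all genes called in these fits was not computed. Serpina3k had 442 and 1003 CPM in WT and 48.9 and 115 CPM in KO (-3.13, SE 0.60), and Serpina3m 67.2 and 76.1 CPM against 7.26 and 15.4 CPM (-2.66, SE 0.43). The KO libraries were below the WT libraries for 14 members, against 20.6% of genes.

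Serpina1b was the only member of the 19 with a positive change in stellate cells (0.19, SE 0.28, adjusted p = 0.907), which turned negative without SC KO 20 and without SC WT 40 (-0.071). Serpina7 had 45 and 11 reads in SC WT and 0 in both SC KO libraries. The 14 hepatocyte markers had a median change of -2.60 with none called, and their part was not tested.

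In Kupffer cells no member of 23 was called by edgeR (0% of 13867 genes were called). DESeq2 called no member either, but its share of all genes called was not computed. At an unadjusted p under 0.05 in edgeR, 3 members were higher, against 3.35% of genes. These were Serpina1a, with 97.9 and 118 CPM in WT and 181 and 177 CPM in KO (0.68, SE 0.27), Serpina3m, with 109 and 101 CPM against 165 and 215 CPM (0.80, SE 0.31), and Serpina9. Serpina9, described mainly from germinal centre B cells, had 2 and 2 reads in WT and 27 and 56 in KO, and these low counts gave a change of 4.27 (SE 1.27). The adjusted p was 0.933 for all 3. All KO libraries exceeded the WT libraries for 11 members, against 18.5% of genes, and the hepatocyte markers had a median change of 0.63 with none called.

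In hepatocytes no member of 25 was called by edgeR (0% of 11548 genes were called), and the median change was -0.01. DESeq2 called no member either, but its share of all genes called was not computed. At an unadjusted p under 0.05, Serpina7 was higher (1.19, SE 0.43) and Serpina3g lower (-1.10, SE 0.36), against 2.42% and 4.69% of genes, with an adjusted p of 0.7 for both. The change of Serpina7 was 0.38 without HC KO 41, and without HC KO 25 it was 1.72 and called.

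Whether the label effect differed between cell types was tested as an interaction over 26 members. Against Kupffer cells, the endothelial effect was lower for 10 members, while 2.07% of all 17214 genes were called, 1.96% as lower. These were Serpina3c (-3.20, adjusted p = 0.0127), Serpina1b (-2.91), Serpina3m (-3.30), Serpina1a (-3.22), Serpina11 (-2.49), Serpina9 (-6.24), Serpina10 (-3.81), Serpina3k (-3.31), Serpina1c (-3.14) and Serpina3n (-2.64). The stellate effect was lower than that of Kupffer cells for 5 members, against 0.593% of genes called and 0.581% called lower, namely Serpina3c (-3.21), Serpina3m (-3.48), Serpina11 (-3.11), Serpina9 (-8.19) and Serpina1a (-3.11). These comparisons share the Kupffer cell libraries. In endothelial against Kupffer cells 12 of the 14 hepatocyte markers were also called lower, with a median of -3.52. In stellate against Kupffer cells 4 of the 14 were, with a median of -3.19. The part of the markers in the members' calls was not tested. The count of 10 was 0 without EC WT 38, without EC KO 6 and without EC KO 46, 1 without KC WT 31, 3 without KC WT 39 or KC KO 43, and 5 without any 1 hepatocyte library. The count of 5 was 0 without KC KO 43, 1 without KC WT 31 or SC WT 40, 3 without KC WT 39, SC KO 8 or a hepatocyte library other than KO 25, and 10 without SC KO 20. Both counts were 0 without WT 38, 39 and 40 together.

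No member was called in the other 4 interactions, in which 0.0349% (EC against SC), 0.0697% (EC against HC), 0.0755% (SC against HC) and 0.0116% (KC against HC) of genes were called. The member with the smallest adjusted p between endothelial and stellate cells was Serpina1b (-2.63, SE 0.45, adjusted p = 0.125). At an unadjusted p under 0.05 the edgeR test had 1 member lower there, against 2.78% of genes, 13 lower in endothelial cells against hepatocytes (6.28%), 12 lower in stellate cells against hepatocytes (4.96%) and 2 higher in Kupffer cells against hepatocytes (5.16%). DESeq2 called 1, 12, 8 and 1 members in these tests, and its share of all genes called was not computed.

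Other genes of the same system were read from lists of 15 other serpins, 12 proteases that serpins act on, 5 cofactors and secretion or uptake factors, and 10 regulators. In endothelial cells 5 of 15 other serpins were lower under the KO label, beside 1.97% of all genes and all 14 hepatocyte markers (median -2.93), whose part in these changes was not tested: Serpinf1 (-2.63), Serping1, the C1 inhibitor (-2.21), Serpinc1, antithrombin (-2.74), Agt, angiotensinogen (-2.88), and Serpinf2, alpha-2-antiplasmin (-2.95). Of the intracellular or matrix serpins, Serpinb6a (0.39), Serpinb9 (0.38) and Serpinh1 (0.59, the highest of the 15) did not pass the test. The median change over all 15 was -1.81, so that these values do not stand for the list. Of 9 proteases tested, 2 were lower beside the same 1.97% of genes, Proc (-2.53) and F10 (-2.92). Ctsl, a cathepsin of the kind that Serpina3g inhibits, had a change of 1.33 that did not pass (adjusted p = 0.181), from a level of 1619 to 4080 normalized CPM. This was the highest change of the 9 proteases, whose median was -2.53, so that it does not stand for the list.

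Of the 5 cofactors, 2 were lower, beside 1.97% of all genes and all 14 hepatocyte markers (median -2.93), whose part was not tested. They were Proz, the partner of Serpina10 (-2.81), and Lrp1, a receptor that clears serpin complexes (-1.47). Lman1 (-0.33), Mcfd2 (0.36) and Sel1l (-0.36) did not pass. None of the 10 regulators was called in that comparison, with -2.76 for Hnf4a (adjusted p = 0.107) and -0.26 for Stat3 (adjusted p = 0.811). In stellate cells, Kupffer cells and hepatocytes no gene of the 4 lists was called under the KO label. Against hepatocytes, Hnf4a, a factor that drives liver genes, had differences of -5.01 in endothelial cells, -7.82 in stellate cells and -4.38 in Kupffer cells. It does not stand for the 10 regulators, whose medians were -2.59, -3.26 and -0.11 and whose highest values were 3.82, 3.40 and 2.52. The 14 hepatocyte markers had medians of -5.40, -6.76 and -4.69 in the same tests, and their part was not tested.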

How the data were processed

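RNA of sorted or density-separated liver cells was sequenced in 16 libraries. Per the labels, reads were trimmed (Trimmomatic 0.32), aligned to GRCm38 (HISAT2 2.1.0) and counted per gene (HTSeq 0.9.1), and the authors deposited raw counts without normalization. The annotation release and the strand setting are not given in the sources used here, and the sources name 2 different library preparations. The 5 summary lines of each table were left out. Levels are CPM over gene reads. All genes were tested with edgeR 4.0.16 (filterByExpr, TMM, 1 mean per group, quasi-likelihood F test, two-sided) with Benjamini-Hochberg adjustment over all genes tested and a threshold of 0.05, within a cell type for the genotype label and over 16 libraries otherwise. DESeq2 1.42.0, other scalings, filters and left-out libraries were alternatives. Differences are log2 fold changes, and 3 counts served as the floor. All members are accounted for, and those averaging 10 or more CPM in a cell type are described singly. Of the other lists, genes past the threshold and up to 4 with high levels were named. Members and lists were chosen with earlier results of these data known, and letters for the sequence searches and the libraries WT 38, 39 and 40 after values were seen. Replicates of a group differed beyond counting noise (chi-square per degree of freedom 29.6 to 109). Labels do not say that libraries came from separate mice or that cell types share a liver, so that p-values measure the spread between libraries. The fits were also run on simulated data, and the outcome is not given here. Unchanged genes there had 1 mean over all groups, unlike the cell types in these data. Sequences were aligned with MAFFT 7.526. The result of 1 listed regulator is not reported here.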

Additional observations from a re-analysis of the deposited data

Results flagged for a closer look

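The label effect of 10 members differed between endothelial and Kupffer cells by the interaction test, all lower in endothelial cells: Serpina3n (-2.64), Serpina3k (-3.31), Serpina9 (-6.24), Serpina10 (-3.81), Serpina11 (-2.49), Serpina3c (-3.20), Serpina1a (-3.22), Serpina1b (-2.91), Serpina3m (-3.30) and Serpina1c (-3.14). That of 5 members differed between stellate and Kupffer cells, all lower in stellate cells: Serpina9 (-8.19), Serpina11 (-3.11), Serpina3c (-3.21), Serpina1a (-3.11) and Serpina3m (-3.48). Both tests use the same Kupffer cell libraries, and the values of Serpina9 rest on 0 to 56 reads per library of these cell types. The hepatocyte markers moved the same way, with medians of -2.93, -2.60 and 0.63 in endothelial, stellate and Kupffer cells. Of the 14 markers, 12 were called lower in endothelial against Kupffer cells and 4 in stellate against Kupffer cells. Among all genes 1.96% and 0.581% were called lower in these tests. The part of the markers was not tested. Groups of 2 libraries are too small for a test of single libraries that stand apart.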

How the results depend on the processing

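With 2 libraries per group, most counts of called members depended on single libraries or on the method, and levels near the floor of 3 counts carry little weight. The 9 members called in endothelial cells became 0 to 13 when 1 library was left out and 8 to 13 otherwise. In stellate cells 0 became 9 with DESeq2, 16 with no filter on low counts and 6 with all 16 libraries in 1 fit, and stayed 0 for each library left out. In hepatocytes 0 became 1 with no filter, and 0 to 1 with a library left out. In Kupffer cells the count was 0 throughout. The cause of these changes was not tested. Shares of all genes called under these alternatives were not computed, so that the counts are not a result about the members alone.

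Against hepatocytes, requiring at least 10 counts in every library left fewer genes to test, and 13 (EC), 15 (SC) and 14 (KC) members were called in place of 22, 24 and 24. For the interactions, endothelial against stellate cells gave 1 with DESeq2 and 5 with no filter. Endothelial against Kupffer cells gave 0 without WT 38, 39 and 40 (chosen after seeing the data) and 0 to 11 with 1 library left out. Endothelial cells against hepatocytes gave 5 at an adjusted p under 0.1, 12 with DESeq2, 13 with no filter, 8 with at least 10 counts in every library and 0 to 3 with a library left out. Stellate against Kupffer cells gave 8, 11 and 16 at 0.1, with DESeq2 and with no filter, 0 without WT 38, 39 and 40, and 0 to 10 with a library left out. Stellate cells against hepatocytes gave 3, 8, 15 and 3 at 0.1, with DESeq2, with no filter and with at least 10 counts in every library, and 0 to 7 with a library left out. Kupffer cells against hepatocytes gave 1 with DESeq2 and 1 with no filter. For these counts too, shares of all genes called under the alternatives were not computed.

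Few members changed sign. Serpina3f in endothelial cells against hepatocytes was 1.20 with library totals, 0.067 with no filter, 0.029 with at least 10 counts in every library, 0.14 without WT 38, 39 and 40, and -0.26 to 0.26 with a library left out. It was 0.16 in stellate cells with WT libraries only, and in Kupffer cells 0.54 with library totals and -0.97 to 0.052 with a library left out. Serpina3e-ps in endothelial cells against hepatocytes was 0.22 with library totals. Under the KO label, leaving out a library gave ranges of -0.074 to 1.40 for Serpina3h, -0.71 to 0.23 for Serpina3f, -0.063 to 1.47 for Serpina3i and -0.24 to 1.02 for Serpina3e-ps in endothelial cells, and -0.071 to 0.49 for Serpina1b in stellate cells. Of 1152 values of named genes under alternatives, 926 kept direction and side of the threshold, 153 lost and 45 gained the call, and 28 changed sign. No paired analysis was possible because the groups compared share no numbers.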
